A study of Mus musculus with 14 samples.

Results

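Treatment of mice with G-CSF raised 198 genes and lowered 178 genes in the average over 2 stromal cell populations sorted from bone marrow, osteoblasts and endothelial cells. The change described here is the effect common to both: all 7 arrays of G-CSF mice were set against all 7 arrays of untreated mice in 1 model with the sorted population as a factor, so that the level of a gene in each population drops out and its average shift remains. All 14 arrays of the series entered, 6 of the osteoblast sort (3 untreated, 3 G-CSF) and 8 of the endothelial sort (4 untreated, 4 G-CSF). The mice were wild-type C57BL/6J animals of 6 to 8 weeks that carried the pOBcol2.3-GFP transgene, whose GFP is driven in osteoblast lineage cells by part of the promoter of a type I collagen gene. GFP+ cells without CD45, ter119 and CD31 made up the osteoblast sort, and CD31+ cells without CD45, ter119 and GFP made up the endothelial sort. G-CSF was given under the skin at 250 ug per kg. Titles and protocol text of the G-CSF arrays give 5 days, whereas the protocol text of the untreated arrays mentions vehicle alone beside a course of 7 days. Whether replicates were separate animals is not in the labels, so the p-values measure the spread between these samples, which may be technical.

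G-CSF is the cytokine that drives the production of neutrophils, and it is given to move blood stem cells from the marrow into the blood. It binds the receptor encoded by Csf3r, which signals through JAK kinases and the transcription factor STAT3. Stromal cells of the marrow hold stem cells and lymphoid precursors in place with CXCL12, stem cell factor, VCAM-1 and interleukin-7, and a fall of CXCL12 is a known part of mobilisation by G-CSF.

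Levels are given as log2 of intensity plus 16, changes as log2 differences (G-CSF minus untreated) with their SE, and folds on the same scale, which understates the change of dim genes. A gene was called where limma gave an adjusted p under 0.05 over the 13453 genes tested. The arrays had been scaled by the authors to the same trimmed mean of 500. In RNA of sorted cells, fewer cells of a type and less RNA per cell cannot be told apart.

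The sorts carried RNA of other cells in unequal amounts, as the mean log2 level of marker lists showed. The list of 18 neutrophil genes stood at 10.14, 10.38 and 13.18 in the untreated osteoblast sort and at 12.45 to 13.34 after G-CSF, and at 11.45 to 12.29 in the untreated endothelial sort against 12.42 to 13.31 after G-CSF. The highest of these untreated values belonged to osteoblast replicate 2, which was as rich in neutrophil genes as the G-CSF arrays and was also the highest of its group for monocyte, B lineage and erythroid genes. Ptprc, which encodes the CD45 that the sort was meant to leave out, was 9.27 to 12.05 in untreated and 11.33 to 13.81 in G-CSF osteoblasts, and 9.10 to 10.54 against 10.97 to 11.83 in endothelial cells. It was 3.23-fold higher in common (1.69 ± 0.42, limma adjusted p = 0.0419), a call that ended when any 1 of 10 arrays was left out (adjusted p up to 0.0951, without untreated endothelial replicate 4). Untreated endothelial replicate 1 was high in skeletal muscle genes, with the list of 12 at 13.29 against 7.76 to 9.28 in the rest of its group. The endothelial list separated the sorts on every array, at 8.90 to 10.004 in the osteoblast sort and 12.71 to 13.22 in the endothelial sort, and no member of it was called for G-CSF. The osteoblast and osteocyte list did not mark the osteoblast sort as cleanly, since its levels of 10.93 to 12.66 there met 8.06 to 11.37 in the endothelial sort. The overlap came from untreated osteoblast replicate 2, at 10.93, while the other osteoblast arrays lay at 11.81 to 12.66. Within the endothelial sort the list stood at 9.94 to 11.37 untreated and 8.06 to 10.48 after G-CSF, which overlap. The part of such stromal RNA in the endothelial falls of genes named below, such as Adipoq, Il7, Rspo2 and Alpl, was not tested.

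**Figure D1:**
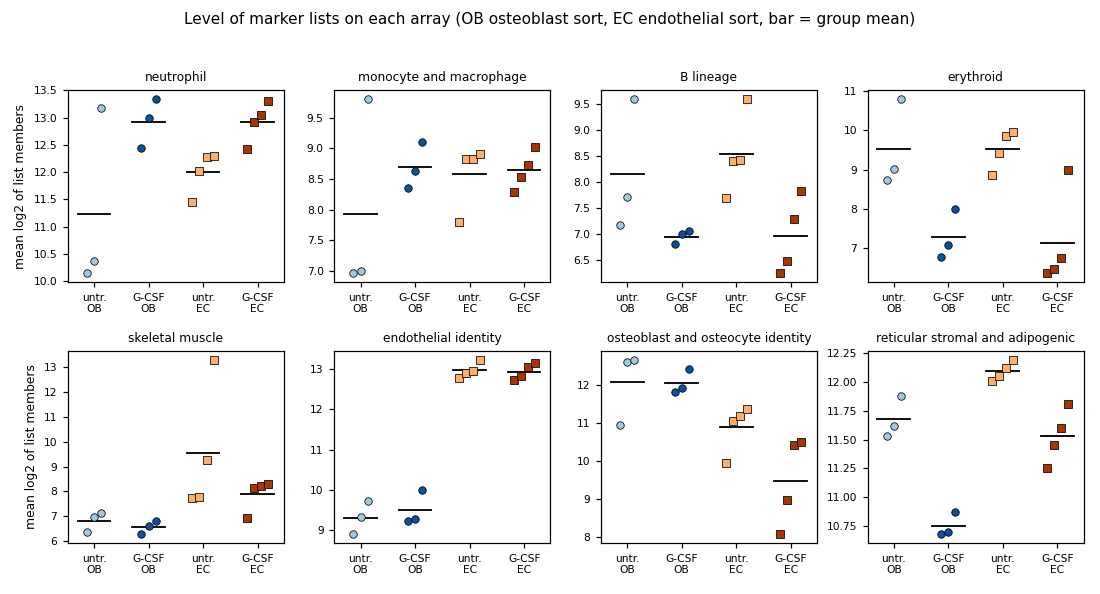
Mean log2 level of 8 marker lists on each array (vertical axis), by group (horizontal axis, untreated and G-CSF osteoblast sort as circles, untreated and G-CSF endothelial sort as squares); each point is 1 array and the bar is the group mean. Untreated osteoblast replicate 2 lies at 13.18 for neutrophil genes, among the G-CSF arrays, and untreated endothelial replicate 1 lies at 13.29 for muscle genes.

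Of the genes tested, 1.47% were called higher and 1.32% lower, and 2273 had an unadjusted p under 0.05. Each of the 376 called genes had the same sign in both sorts. Calling on the average of the sorts favours like signs, so this does not by itself show a shared effect. The share of all tested genes with like signs was not counted. The median change was 1.26 among the genes called higher and -1.16 among those called lower, and 138 and 113 of them reached a log2 change of 1 in size. Most calls needed both sorts: 242 were called in neither sort alone and 16 in both. The rise was larger in osteoblasts for 141 of the 198 genes called higher, and the fall was larger in endothelial cells for 124 of the 178 called lower. A stricter count asked that every G-CSF array lie beyond every untreated array within each sort. It held for 123 genes upwards (0.914%) and 124 downwards (0.922%), and 94 and 83 of these were also called.

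These counts moved with single arrays. Without untreated osteoblast replicate 2 the limma test called 555 higher and 536 lower, and without untreated endothelial replicate 4 it called 116 and 91. The higher count also shrank by over 1.5 times, to 120 to 130, when any of several other arrays was left out. These were untreated osteoblast replicates 1 and 3, untreated endothelial replicates 1 and 3, and G-CSF endothelial replicates 1 and 4. The lower count shrank as much, to 90 to 116, without untreated endothelial replicate 1 or 3 or G-CSF endothelial replicate 1. It was 122 to 134 without any of the rest of these. The count of separated genes grew to 361 and 275 without untreated osteoblast replicate 2, to 204 upwards without G-CSF osteoblast replicate 3 and to 190 downwards without G-CSF osteoblast replicate 2, where fewer arrays had to be separated. Leaving out untreated osteoblast replicate 2 together with untreated endothelial replicate 1, the arrays rich in blood and in muscle genes, gave 450 and 312, among them 187 and 155 of the original calls. With the replicate number as a block within each sort, 284 genes were called higher and 354 lower, and 183 and 170 of the original calls were among them. Centring the arrays on their medians moved the median change of all genes from -0.05 to 0.07 and the split to 325 higher and 123 lower. It gave 170 genes separated upwards and 63 downwards, where the values without centring gave 123 and 124. Within the endothelial sort every G-CSF array had a lower median than every untreated array. Array weights gave 542 and 673.

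**Figure D2:**
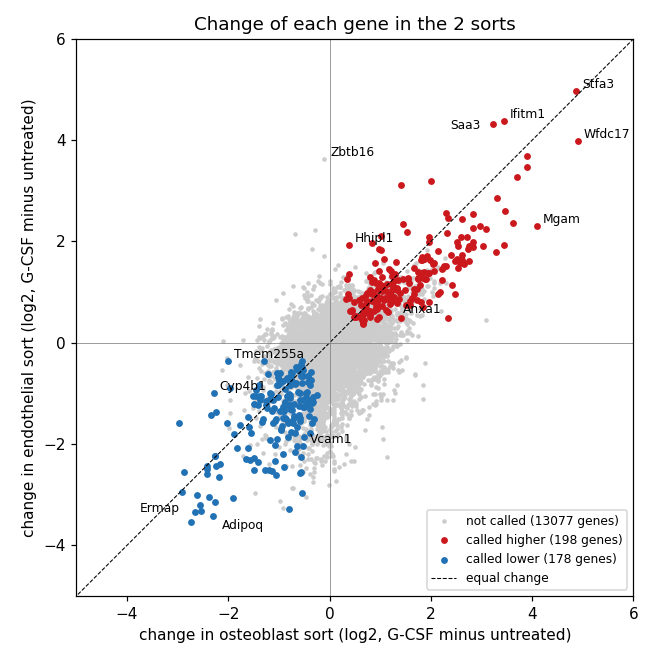
Log2 change of each gene in the osteoblast sort (horizontal axis) against the endothelial sort (vertical axis), 13453 genes, with the 198 called higher in red and the 178 called lower in blue; the dashed line marks equal change. All called genes lie in the quadrants of like sign, which calling on the average of the sorts favours. Zbtb16, which was not called, lies near 0 on the horizontal axis and at 3.62 on the vertical axis.

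Among the called and separated genes Stfa3 rose most. This stefin, which inhibits cysteine cathepsins, was 5.89, 5.92 and 4.47 in untreated osteoblasts and 10.77, 11.31 and 8.78 after G-CSF. In endothelial cells it was 6.46, 6.48, 5.50 and 5.72 untreated and 12.16, 9.37, 11.70 and 10.80 after G-CSF. The lowest G-CSF array thus lay well above the highest untreated array in both sorts, and the common rise was 30.3-fold (4.92 ± 0.44, limma adjusted p = 2.7e-05). Its relative Stfa2l1 was 13.7-fold higher (3.78 ± 0.35, adjusted p = 2.7e-05), while the other 3 measured stefin and cystatin genes were not called.

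Ifitm1, a membrane protein of the family that restricts virus entry, gave the firmest call of all genes named here. It was 11.10, 10.76 and 10.75 in untreated osteoblasts against 14.65, 14.76 and 13.53 after G-CSF, and 10.61, 9.66, 9.87 and 9.63 in untreated endothelial cells against 14.60, 14.06, 14.17 and 14.45. The groups were far apart in both sorts, and the common rise was 15.7-fold (3.97 ± 0.23, limma adjusted p = 1.9e-07). Ifitm6 was 5.99-fold higher (2.58 ± 0.48, adjusted p = 0.0109), and the other 4 genes of the family were not called. Of 27 measured interferon-stimulated genes limma called none, nor any with the replicate block, and 5 had an unadjusted p under 0.05. Over all genes 1.47% were called higher and 1.32% lower, and 2273 of 13453 had an unadjusted p under 0.05. At such shares a list of this size can hold no call, so the count says little about the list. The median change of the interferon-stimulated genes was -0.19 against -0.05 over all genes.

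Saa3, an acute phase apolipoprotein made in inflamed tissue, was 14.4-fold higher (3.85 ± 0.38, limma adjusted p = 5.2e-05). It read 9.07, 8.33 and 8.13 in untreated and 12.30, 11.94 and 10.95 in G-CSF osteoblasts, and 9.61, 7.29, 7.72 and 6.80 in untreated and 12.61, 11.79, 11.99 and 12.29 in G-CSF endothelial cells. Of 11 measured acute phase genes 4 were called higher and 0 lower, with a median change of 0.94. Besides Saa3 these were Hp, the haptoglobin that binds free hemoglobin, at 1.08 ± 0.21 (adjusted p = 0.0118), Steap4, a metalloreductase, and Lcn2, the siderophore-binding lipocalin. The calls of Steap4 (1.19 ± 0.28, adjusted p = 0.0327) and Lcn2 (1.46 ± 0.38, adjusted p = 0.0483) ended when single arrays were left out, with adjusted p up to 0.0784 without untreated endothelial replicate 1 and up to 0.0982 without untreated endothelial replicate 4. Lcn2 also belongs to the neutrophil list, and it read 14.10 on untreated osteoblast replicate 2 against 11.54 and 11.14 on the others. Hp read 14.02 on that array against 13.20 and 12.48.

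Other genes among the 15 largest separated rises were Wfdc17 (4.38 ± 0.54), Prok2, a secreted chemoattractant (3.65 ± 0.36), Asprv1, an aspartic protease (3.45 ± 0.32), and Mgam, an enzyme that digests starch (3.07 ± 0.48). With them rose Dmkn, Ceacam10, Slfn4 and Mapk13, by 2.58 to 2.98. Among innate immune receptors, 7 of 20 measured genes of the interleukin-1 and Toll-like receptor list were called higher and none lower, with a median change of 0.63. Il1r2, the decoy receptor for interleukin-1, was 6.69, 9.13 and 7.08 in untreated against 11.30, 10.16 and 9.92 in G-CSF osteoblasts, and 8.60 to 9.53 against 11.11 to 12.03 in endothelial cells. No group overlapped with its counterpart, and the rise was 6.32-fold (2.66 ± 0.33, limma adjusted p = 0.0006). Tlr1, a receptor for bacterial lipoproteins, rose by 3.05 ± 0.47 (adjusted p = 0.0033), and Cd14, the co-receptor for endotoxin, by 2.04 ± 0.41 (adjusted p = 0.0164). Cd14 overlapped in osteoblasts: it read 11.58 on untreated replicate 2, above 10.97 and 11.06 on G-CSF replicates 2 and 3. The other untreated osteoblast arrays read 8.38 and 8.31.

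Of the 18 measured neutrophil markers all changes were positive and 6 were called, with a median of 1.22. By sort, the median was 1.74 in osteoblasts and 0.88 in endothelial cells. The largest called changes were those of Ctsg (2.28 ± 0.59, limma adjusted p = 0.0483) and Cd177 (2.03 ± 0.51, 0.0446). These calls ended when any 1 of 13 and of 12 arrays was left out (up to 0.101 without untreated osteoblast replicate 3 and 0.0983 without untreated endothelial replicate 4). Cxcr2, the neutrophil receptor for chemokines, rose 3.80-fold (1.93 ± 0.40, limma adjusted p = 0.0170). Without the arrays rich in blood and muscle RNA 14 of the 18 were called. The part of neutrophil RNA in the rise of the genes above was not tested. On untreated osteoblast replicate 2, whose neutrophil list stood at 13.18, 9 of the 15 largest separated rises were raised by more than 1 log2 unit over both other untreated osteoblast arrays, by 1.66 to 3.75. Those 9 were Wfdc17 (9.34, the others at 5.12 and 5.59), Ifitm6 (12.24, the others at 9.09 and 8.57), Il1r2, Mgam, Tlr1, Dmkn, Ceacam10, Slfn4 and Mapk13. The other 6 were Stfa3, Ifitm1, Saa3, Stfa2l1, Prok2 and Asprv1, which lay between 0.75 below and 0.83 above the higher of those arrays. All 15 were chosen because every G-CSF array exceeded every untreated array, which capped how high replicate 2 could lie. How many of all tested genes were raised as much on that array was not counted. The split into 9 and 6 therefore does not assign a source to any of these rises.

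**Figure D3:**
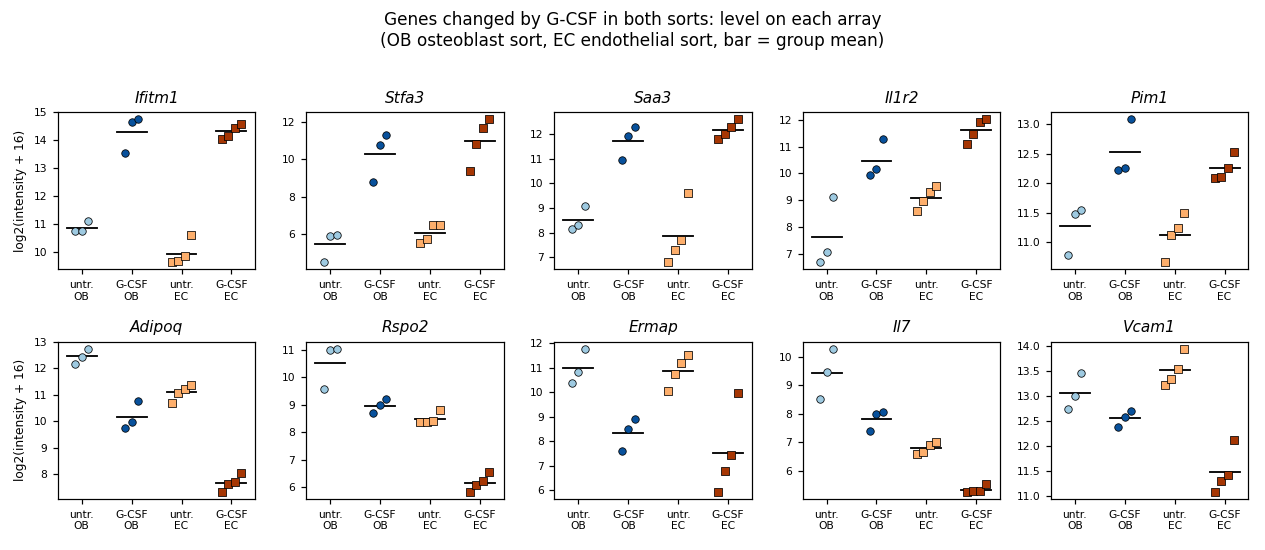
Log2 of intensity plus 16 (vertical axes, a separate scale for each gene) of 10 genes on each array by group (circles osteoblast sort, squares endothelial sort, lighter untreated, darker G-CSF); the bar is the group mean. The upper row rose and the lower row fell in both sorts, and within each sort no G-CSF array of these genes reaches the untreated range.

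The promoters of the genes called higher were read for the core sequence that STAT factors bind, TTCNNNGAA, which reads the same on both strands. The window was 250 bases before to 50 after the start site, from RefSeq (GRCm38.p6), which held promoters for 161 of the 198 genes. A match was present for 25 of these genes (15.5%), for 9 of 132 genes called lower (6.82%), for 888 of 10833 tested genes with a promoter (8.20%), and in 8.30% of the 32851 promoters of the table. None of the 5 genes of the G-CSF receptor and STAT3 list that were called higher held a match. The promoters of 3 called genes with a match are shown, since these genes are named above, with the match in capitals. That of Il1r2 begins 111 bases before the start site, that of Ifitm6 10 bases and that of Steap4 116 bases before it. A match describes the letters in this window and does not show that a factor binds there.
Il1r2 (chr1:40085843-40086142, plus strand): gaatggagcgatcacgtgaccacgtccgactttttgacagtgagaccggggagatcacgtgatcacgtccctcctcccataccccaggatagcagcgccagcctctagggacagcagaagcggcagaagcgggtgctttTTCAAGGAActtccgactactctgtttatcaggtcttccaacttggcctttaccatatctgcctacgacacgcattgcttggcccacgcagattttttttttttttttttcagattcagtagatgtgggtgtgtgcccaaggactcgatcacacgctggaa
Ifitm6 (chr7:141016843-141017142, minus strand): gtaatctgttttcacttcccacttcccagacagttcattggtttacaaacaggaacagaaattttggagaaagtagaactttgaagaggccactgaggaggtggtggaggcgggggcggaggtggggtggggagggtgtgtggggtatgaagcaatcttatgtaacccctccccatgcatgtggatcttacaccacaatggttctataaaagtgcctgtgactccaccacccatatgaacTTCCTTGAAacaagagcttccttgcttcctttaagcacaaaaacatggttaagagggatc
Steap4 (chr5:7960222-7960521, plus strand): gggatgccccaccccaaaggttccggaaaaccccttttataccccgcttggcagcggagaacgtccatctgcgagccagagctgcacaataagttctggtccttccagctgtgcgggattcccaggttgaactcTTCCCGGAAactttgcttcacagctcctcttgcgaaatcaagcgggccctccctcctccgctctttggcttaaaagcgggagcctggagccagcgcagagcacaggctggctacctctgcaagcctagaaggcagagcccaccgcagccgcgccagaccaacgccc

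Of 23 measured genes of the G-CSF receptor and STAT3 list 5 were called higher and none lower, with a median change of 0.29. Pim1, a kinase induced by STAT signalling, was 10.77, 11.54 and 11.48 in untreated and 12.23, 12.25 and 13.09 in G-CSF osteoblasts, and 10.66 to 11.49 against 12.10 to 12.53 in endothelial cells. It rose 2.27-fold with no overlap in either sort (1.18 ± 0.18, limma adjusted p = 0.0031). Bcl3, a nuclear partner of NF-kappaB, rose 1.98-fold (0.99 ± 0.18, adjusted p = 0.0111), also with no overlap in either sort. Cebpb, a transcription factor of emergency neutrophil production that is named after its value was seen, changed by 0.63 ± 0.13 (adjusted p = 0.0211) and Osmr, the oncostatin M receptor, by 0.70 ± 0.17 (adjusted p = 0.0392), the latter not called when any 1 of 10 arrays was left out (up to 0.0814, without untreated osteoblast replicate 3). The receptor gene Csf3r itself was 3.37-fold higher (1.75 ± 0.39, adjusted p = 0.0260), a call that ended when any 1 of 6 arrays was left out (adjusted p up to 0.0599, without untreated endothelial replicate 4). Csf3r also belongs to the neutrophil list, and it read 10.13 on untreated osteoblast replicate 2 against 7.64 and 7.88 on the others. Stat3 changed by 0.48 ± 0.12 (adjusted p = 0.0512, and 0.0184 with the replicate block). Socs3, the feedback inhibitor of the pathway, changed by 0.32 ± 0.27 (adjusted p = 0.617).

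Genes of red cell precursors made up the largest fall of a list. Of 9 measured erythroid genes 8 were called lower, with a median change of -2.35, where 1.32% of all genes were called lower. Ermap, a membrane protein of erythroblasts, was 10.37, 11.78 and 10.82 in untreated and 8.48, 8.91 and 7.59 in G-CSF osteoblasts. In endothelial cells it was 11.21, 10.07, 10.74 and 11.52 untreated and 6.77, 7.46, 5.93 and 9.99 after G-CSF. The groups did not overlap, although G-CSF endothelial replicate 4 came close, and the common fall was 8.31-fold (-3.06 ± 0.49, limma adjusted p = 0.0046). Klf1 and Gata1, the transcription factors of red cell development, changed by -2.93 ± 0.49 (adjusted p = 0.0063) and -1.98 ± 0.34 (adjusted p = 0.0071). Gfi1b, a repressor of the same lineage, and Tspo2 were also among the 15 largest separated falls. Car1, Slc4a1 and Rhag, which encode red cell carbonic anhydrase, band 3 and a Rh-associated protein, changed by -2.99, -2.76 and -2.25. The call of Slc4a1 (adjusted p = 0.0387) ended when any 1 of 8 arrays was left out (up to 0.0883, without untreated endothelial replicate 4). G-CSF endothelial replicate 4 stood above its group, at 8.98 for the erythroid list against a group median of 6.61. Both sorts were gated against ter119, a surface marker of the same lineage. Without the arrays rich in blood and muscle RNA 6 of the 9 genes were called.

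The promoters of these erythroid genes were read for the GATA motif, as AGATAA or TGATAA on either strand. Of the 8 genes called lower, 6 had a promoter in the RefSeq table and 5 of these held the motif, compared with 18.6% of all 32851 promoters of this length and 12.6% of tested genes with a promoter. Gata1 was the gene without a match. The motif is printed in capitals for 3 of the 5, where it begins 67, 80 and 31 bases before the start site.
Ermap (chr4:119189946-119190245, minus strand): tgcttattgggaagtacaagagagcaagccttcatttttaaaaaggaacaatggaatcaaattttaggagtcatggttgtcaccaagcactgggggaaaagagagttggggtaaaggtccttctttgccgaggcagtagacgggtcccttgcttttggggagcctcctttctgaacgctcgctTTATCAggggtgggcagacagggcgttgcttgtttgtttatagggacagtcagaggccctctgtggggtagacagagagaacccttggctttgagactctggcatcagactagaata
Klf1 (chr8:84901732-84902031, plus strand): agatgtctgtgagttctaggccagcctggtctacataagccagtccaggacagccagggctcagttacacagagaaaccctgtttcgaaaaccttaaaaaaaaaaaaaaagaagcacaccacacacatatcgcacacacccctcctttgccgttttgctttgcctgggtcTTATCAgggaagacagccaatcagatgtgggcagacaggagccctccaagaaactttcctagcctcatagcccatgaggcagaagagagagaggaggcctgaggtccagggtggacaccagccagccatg
Rhag (chr17:40810899-40811198, plus strand): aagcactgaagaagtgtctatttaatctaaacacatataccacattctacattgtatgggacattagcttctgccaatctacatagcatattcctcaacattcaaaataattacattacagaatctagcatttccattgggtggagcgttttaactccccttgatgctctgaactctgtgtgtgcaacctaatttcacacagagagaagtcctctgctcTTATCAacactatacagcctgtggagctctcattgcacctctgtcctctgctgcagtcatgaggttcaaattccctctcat

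B lineage genes leaned the same way. Of 11 measured members 10 had a negative change and 2 were called lower, with a median of -1.40. Rag1, the recombinase of antigen receptor genes, fell 4.05-fold (-2.02 ± 0.46, limma adjusted p = 0.0290), and Vpreb1, part of the surrogate light chain, fell 6.80-fold (-2.77 ± 0.71, adjusted p = 0.0486). Both calls ended without single arrays, up to 0.0582 without untreated endothelial replicate 4 for Rag1 and 0.0962 without G-CSF endothelial replicate 1 for Vpreb1. Vpreb1 also lost its call without the arrays rich in blood and muscle RNA (0.0699). With the replicate block 5 B lineage genes were called lower. The list's level was 7.17, 7.71 and 9.61 in untreated osteoblasts against 6.81 to 7.05 after G-CSF, without overlap. In endothelial cells it was 7.69 to 9.61 untreated and 6.24 to 7.82 after G-CSF, which overlap.

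Some reticular stromal and adipogenic genes fell in common, although the sorts were defined by other markers. Of 14 measured members 4 were called lower and none higher, with a median of -0.57. Adipoq, the hormone adiponectin, was 12.75, 12.44 and 12.18 in untreated and 9.73, 10.75 and 9.96 in G-CSF osteoblasts, and 11.23, 11.38, 11.05 and 10.70 in untreated and 7.69, 7.32, 7.61 and 8.02 in G-CSF endothelial cells. The groups stood far apart in both sorts. The common fall of 7.73-fold was the firmest among the genes named as lower (-2.95 ± 0.22, limma adjusted p = 4.9e-06). Cyp4b1, a cytochrome P450 enzyme, fell 2.93-fold (-1.55 ± 0.26, adjusted p = 0.0063) with no overlap in either sort. Apoe, the lipid carrier apolipoprotein E, changed by -0.76 ± 0.18 (adjusted p = 0.0314), a call that ended when any 1 of 8 arrays was left out (up to 0.0694, without untreated endothelial replicate 4). The change of Apoe was -1.29 ± 0.21 in osteoblasts and -0.35 ± 0.18 in endothelial cells, where the groups overlap. Lepr, the leptin receptor of perivascular stromal cells, changed by -0.65 ± 0.30 and was not called (adjusted p = 0.288).

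In the niche factor list, which holds retention and growth factors of the marrow, 3 of 15 measured genes were called lower and none higher, with a median of -0.38. Il7, the growth factor of B and T precursors, was 10.29, 8.52 and 9.49 in untreated and 8.01, 7.42 and 8.06 in G-CSF osteoblasts, and 7.02, 6.60, 6.93 and 6.67 in untreated and 5.52, 5.29, 5.31 and 5.26 in G-CSF endothelial cells. It fell 2.87-fold without overlap in either sort (-1.52 ± 0.23, limma adjusted p = 0.0029). The G-CSF endothelial values are dim, and signals near background limit the fold. Whether stromal RNA in the endothelial sort carried the fall there was not tested. Vcam1, the adhesion molecule for the integrin VLA-4, fell 2.62-fold (-1.39 ± 0.26, adjusted p = 0.0109). Its levels were 13.47, 12.75 and 13.00 in untreated and 12.70, 12.38 and 12.59 in G-CSF osteoblasts, and 13.36, 13.22, 13.55 and 13.95 in untreated and 11.29, 11.41, 12.13 and 11.08 in G-CSF endothelial cells. The groups of the osteoblast sort nearly touch, whereas those of the endothelial sort are well apart.

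Cxcl12, the chemokine that retains stem cells, had a small common fall of 1.43-fold (-0.51 ± 0.13, limma adjusted p = 0.0387). It was 14.93, 14.45 and 14.58 in untreated and 14.14, 14.002 and 14.16 in G-CSF osteoblasts, which do not overlap, and 13.996 to 14.45 against 13.39 to 14.06 in endothelial cells, which do. The call ended when any 1 of 11 arrays was left out (adjusted p up to 0.0811, without untreated endothelial replicate 1) and under median centring. Csf1, the growth factor of macrophages, missed the threshold at -0.62 ± 0.16 (adjusted p = 0.0512), with 0.0097 without the arrays rich in blood and muscle RNA. Angpt1, the ligand of Tie2, changed by -0.65 ± 0.23 (adjusted p = 0.155). Kitl, which encodes stem cell factor, changed by -0.08 ± 0.28 (adjusted p = 0.931), with a sign that depended on the scaling.

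**Figure D4:**
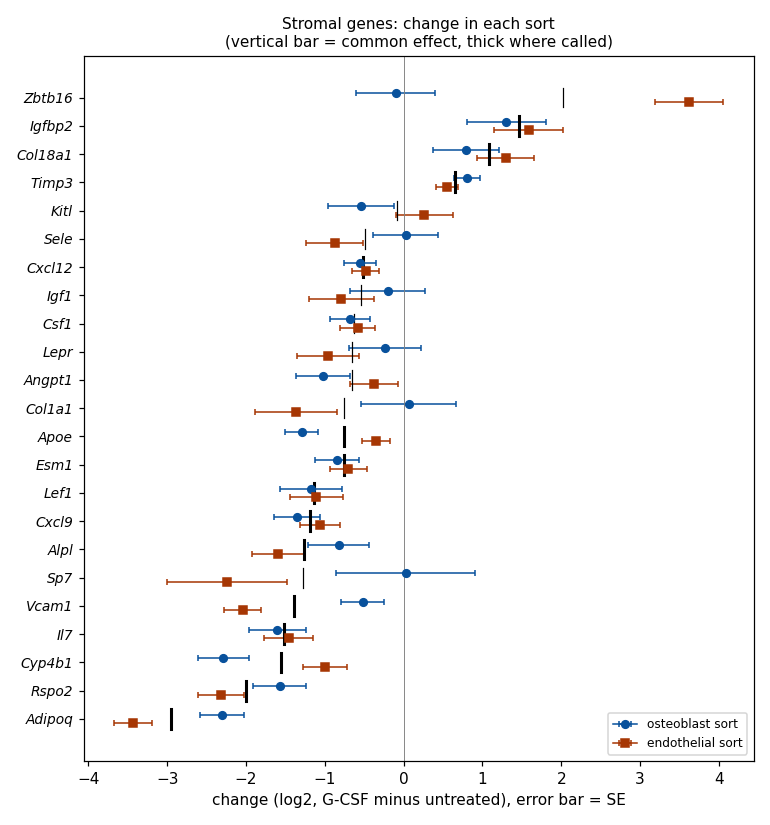
Log2 change after G-CSF of 23 stromal genes in the osteoblast sort (circles) and the endothelial sort (squares), error bars SE, with the common effect as a vertical bar that is thick where limma called it. Vcam1 changed by -0.52 and -2.04 and Zbtb16 changed by -0.10 and 3.62.

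Rspo2, a secreted booster of Wnt signalling that is in none of the lists, was 11.04, 9.59 and 10.98 in untreated and 8.70, 8.99 and 9.20 in G-CSF osteoblasts, and 8.37 to 8.80 against 5.84 to 6.56 in endothelial cells. It fell 4.00-fold without overlap (-2.001 ± 0.23, limma adjusted p = 0.0003). Of the 19 measured genes of the Wnt list 1 was called lower and none higher: Lef1, a transcription factor of the pathway, fell 2.20-fold (-1.14 ± 0.25, adjusted p = 0.0216). The call of Lef1 ended when any 1 of 3 arrays was left out (adjusted p up to 0.0523, without untreated endothelial replicate 3). In the BMP and TGF-beta list 2 of 23 measured genes were called lower and none higher. Smad6, an inhibitory Smad, fell 1.94-fold (-0.96 ± 0.20, adjusted p = 0.0170) and Grem1, a BMP antagonist, fell 1.78-fold (-0.83 ± 0.21, adjusted p = 0.0420), the latter not under the replicate block (0.0723) nor when any 1 of 12 arrays was left out (up to 0.0968, without untreated endothelial replicate 1). None of 13 Notch genes was called by limma, and none had an unadjusted p under 0.05.

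Cxcl9, a chemokine induced by interferon-gamma, fell 2.27-fold (-1.18 ± 0.19, adjusted p = 0.0041). Further separated falls were those of Npy, the neuropeptide Y (-2.69 ± 0.39), Tspan8, a tetraspanin (-2.18 ± 0.41), Kcnk2, a potassium channel (-1.94 ± 0.34), Ndnf, a secreted neurotrophic factor (-1.95 ± 0.29), and Dpep1, a membrane dipeptidase (-1.79 ± 0.26). Fcmr, the receptor for IgM, and Mylk3, a myosin light chain kinase, fell by 1.88 and 1.77 on the log2 scale.

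In the endothelial identity list limma called 0 of 21 genes, also with the replicate block, and 2 had an unadjusted p under 0.05. Their changes ran from -0.52 to 0.46. Cdh5, the cadherin of endothelial junctions, changed by 0.23 ± 0.17, Kdr, the main VEGF receptor, by -0.12 ± 0.17, and Pecam1 by 0.34 ± 0.21, none called. Of 13 measured osteoblast and osteocyte genes 1 was called lower and none higher, 7 were lower at an unadjusted p under 0.05, and 4 were called lower with the replicate block. Their median change was -1.25, with -0.06 in osteoblasts and -1.72 in endothelial cells. The osteoblast value includes untreated replicate 2, with this list at 10.93 against 12.59 and 12.66 on the other untreated arrays. After G-CSF the osteoblast arrays lay at 11.81 to 12.41. The part of replicate 2 in the osteoblast median was not tested. The called gene was Alpl, the alkaline phosphatase that allows mineral to form, at 13.03, 13.34 and 13.53 in untreated and 11.72, 12.90 and 12.79 in G-CSF osteoblasts, and 10.78 to 11.31 against 8.56 to 10.11 in endothelial cells. It fell 2.40-fold (-1.26 ± 0.26, limma adjusted p = 0.0170), without overlap in either sort. Col1a1, the type I collagen chain whose promoter drives the GFP, changed by -0.75 ± 0.42 and Sp7, an osteoblast transcription factor, by -1.27 ± 0.63, neither called. Tnfsf11 and Tnfrsf11b, the RANK ligand and its decoy receptor, changed by -0.05 ± 0.42 and -0.07 ± 0.45, with signs that depended on the scaling. Bglap, Runx2 and Spp1 were not among the genes tested.

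Of 22 collagens limma called 1 higher and none lower, although 18 changes were negative, with a median of -0.62. By sort, the median was -0.02 in osteoblasts and -0.98 in endothelial cells. The difference between these medians was not tested, and untreated osteoblast replicate 2 enters the osteoblast value. At an unadjusted p under 0.05 10 collagens were lower and 1 higher, and with the replicate block 3 were called lower and 1 higher. Limma called 0 of 22 matrix glycoproteins and proteoglycans, of which 11 were lower at an unadjusted p under 0.05 and 2 were called lower with the replicate block. Their median change was 0.06 in osteoblasts and -1.12 in endothelial cells. The collagen called higher was Col18a1, the source of endostatin (1.08 ± 0.27, limma adjusted p = 0.0437), a call that ended when any 1 of 10 arrays was left out (up to 0.103, without untreated endothelial replicate 1). Timp3, an inhibitor of metalloproteinases bound to the matrix, rose 1.58-fold (0.66 ± 0.11, adjusted p = 0.0054). Its untreated osteoblast arrays lay at 12.24 to 12.60 and the G-CSF arrays at 13.15 to 13.34, and the endothelial arrays at 13.49 to 13.76 and 13.91 to 14.25, with no overlap. Mmp9, a gelatinase that neutrophils also store, rose 2.94-fold (1.55 ± 0.30, adjusted p = 0.0126). Igfbp2, a carrier of insulin-like growth factors, rose 2.76-fold (1.47 ± 0.32, adjusted p = 0.0234) without overlap in either sort, though not without untreated endothelial replicate 1 (0.0558).

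Genes of metabolism and daily rhythm rose in part. In the glycolysis and hypoxia list 4 of 18 measured genes were called higher and none lower, with a median of 0.53. Slc2a1, the glucose transporter of most cells, was 8.37, 9.52 and 8.81 in untreated and 10.13, 10.35 and 10.46 in G-CSF osteoblasts, and 10.48 to 10.62 against 10.86 to 11.39 in endothelial cells. It rose 1.85-fold without overlap (0.89 ± 0.20, limma adjusted p = 0.0234, and 0.0537 without untreated osteoblast replicate 3). Pfkfb3, which makes the activator of phosphofructokinase, rose 2.06-fold (1.04 ± 0.23, adjusted p = 0.0234). Its call ended when any 1 of 6 arrays was left out (up to 0.0562, without untreated endothelial replicate 3) and with averaged probe sets. The other called members were Pgk1, a glycolytic kinase (0.95 ± 0.24, adjusted p = 0.0437), and Bnip3, a mitochondrial target of hypoxia (0.70 ± 0.18, adjusted p = 0.0419). Their calls ended when any 1 of 12 and of 11 arrays was left out (up to 0.0939 without untreated osteoblast replicate 3 and 0.0967 without untreated endothelial replicate 3). Without the arrays rich in blood and muscle RNA 11 of the 18 were called. Among 16 clock genes 3 were called higher. Dbp, a clock output factor of the PAR bZIP family, rose 3.11-fold (1.64 ± 0.31, adjusted p = 0.0116), with 9.19 to 10.03 in untreated against 10.94 to 12.27 in G-CSF endothelial cells and an overlap in osteoblasts (10.25 to 11.63 against 11.28 to 12.93). With probe sets of the suffixes _x_at and _s_at left out first, another probe set stood for Dbp and changed by 0.79 (adjusted p = 0.193). The other called clock genes were Bhlhe40 (0.98 ± 0.24, adjusted p = 0.0397) and Cry2 (0.67 ± 0.17, adjusted p = 0.0419), and each call ended when any 1 of 10 arrays was left out (up to 0.0775 without untreated osteoblast replicate 3 and 0.0921 without untreated endothelial replicate 3). Per1, a core clock gene, changed by 0.22 ± 0.23 and was not called. The hour at which cells were taken is not given in the sources used here. Of 16 glucocorticoid-responsive genes Pdk4, the kinase that restrains pyruvate dehydrogenase, fell 2.76-fold (-1.47 ± 0.23, adjusted p = 0.0033). One was called higher, Tsc22d3, at 0.64 ± 0.15 (adjusted p = 0.0370). The call of Tsc22d3 ended when any 1 of 10 arrays was left out (up to 0.0847, without untreated endothelial replicate 3) and with averaged probe sets. No gene of the respiratory chain, cell cycle or immediate early lists was called by limma, of 20, 22 and 17 measured, with or without the replicate block, and 2 cell cycle genes alone had an unadjusted p under 0.05.

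Single genes of further lists changed. Fdps, an enzyme of sterol synthesis, rose 1.91-fold (0.94 ± 0.19, limma adjusted p = 0.0170), the only called gene of 15 in its list, without overlap in either sort. Sdf2l1, a chaperone partner of the endoplasmic reticulum, rose 2.02-fold (1.01 ± 0.23, adjusted p = 0.0260), the only called gene of 17. That call ended when any 1 of 7 arrays was left out (up to 0.0616, without untreated endothelial replicate 1). Esm1, a proteoglycan secreted by endothelial tip cells, fell 1.70-fold (-0.76 ± 0.17, adjusted p = 0.0292), the only called gene of 17 in the angiogenic list. That call ended when any 1 of 9 arrays was left out (up to 0.0646, without G-CSF endothelial replicate 4). Ccr1, a chemokine receptor of myeloid cells, rose 3.96-fold (1.98 ± 0.41, adjusted p = 0.0170) and was 9.85 on untreated osteoblast replicate 2 against 7.96 and 7.67.

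**Figure D5:**
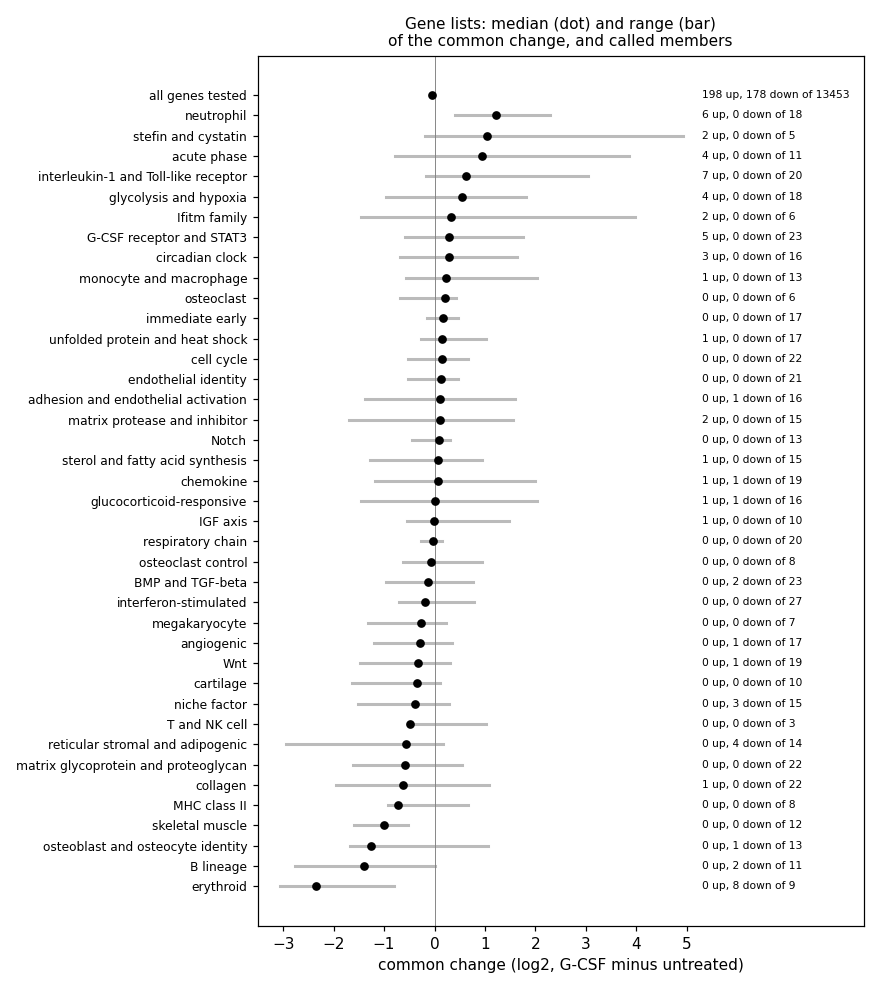
Median (dot) and range (bar) of the common log2 change over the measured members of 39 gene lists and, in the top row, the median of all 13453 genes; the text at the right gives the called members. The neutrophil list lies highest, with a median of 1.22, and the erythroid list lowest, at -2.35.

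Whether the change differs between the sorts was tested as the osteoblast change minus the endothelial change. No gene passed (0% of those tested, smallest limma adjusted p = 0.203), and 622 had an unadjusted p under 0.05, among them 39 of the 376 called genes. The test called 1 gene with a fixed replicate block and 4 with a random block, and 21 without untreated osteoblast replicate 2. That no gene passed does not show that the changes are equal. Across all genes the changes of the sorts correlated at 0.494 (Pearson) and 0.361 (Spearman), as a description over genes, which share arrays and are not independent.

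The called genes least alike between the sorts were chosen by their difference. Acaa1b, a thiolase of fatty acid breakdown in peroxisomes, had the largest in size among these 5, with -0.55 ± 0.46 in osteoblasts and -2.97 ± 0.40 in endothelial cells, a difference of 2.42 (95% interval 1.14 to 3.70, limma adjusted p = 0.550). Its common call (-1.93 ± 0.42, adjusted p = 0.0218) ended when any 1 of 3 arrays was left out (up to 0.0533, without untreated endothelial replicate 3). Tmem255a changed by -2.01 ± 0.26 in osteoblasts and by -0.37 ± 0.22 in endothelial cells, a difference of -1.64 (95% interval -2.36 to -0.91, limma adjusted p = 0.457). The 1.52 difference of Vcam1 (0.76 to 2.29, adjusted p = 0.537) ran the other way, from -0.52 ± 0.27 in osteoblasts to -2.04 ± 0.24 in endothelial cells. Hhipl1 changed by 0.38 ± 0.30 and 1.93 ± 0.26, and Rhbdf2, a regulator of the TNF-releasing protease, by 2.34 ± 0.37 and 0.50 ± 0.32. The common calls of Tmem255a (adjusted p = 0.0387) and Rhbdf2 (0.0466) ended with the replicate block (0.0629 and 0.0790) and when any 1 of 9 and of 12 arrays was left out (up to 0.0814 without untreated osteoblast replicate 3 and 0.0892 without G-CSF osteoblast replicate 1). That of Hhipl1 (0.0211) ended without untreated endothelial replicate 4 (0.0520). Anxa1, the anti-inflammatory annexin, was chosen for its small difference, with 1.03 ± 0.21 and 1.01 ± 0.18 and a difference of 0.02 (-0.57 to 0.60). Its common rise was 2.03-fold (1.02 ± 0.13, adjusted p = 0.0008), or 0.72 and not called where the probe sets of a gene were averaged (0.0882). It was 14.03 to 14.17 in untreated and 15.09 to 15.21 in G-CSF osteoblasts, and 13.05 to 13.72 against 14.03 to 14.73 in endothelial cells. Fbxl5, an iron-sensing ubiquitin ligase subunit also chosen for its small difference, changed by 1.13 ± 0.31 and 1.16 ± 0.27, a difference of -0.02 (-0.90 to 0.85), and its common rise was 2.21-fold (1.15 ± 0.20, adjusted p = 0.0069).

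Zbtb16, which encodes the transcription factor PLZF, shows what an average over the sorts can hide. In endothelial cells it was 8.22, 8.43, 7.47 and 7.52 untreated and 11.36, 11.91, 10.86 and 12.01 after G-CSF, whereas in osteoblasts it was 10.14, 11.13 and 9.12 untreated and 10.06, 10.84 and 9.19 after G-CSF. Its common effect of 2.03 ± 0.56 was not called (limma adjusted p = 0.0658) and would describe neither sort, with changes of 3.62 ± 0.43 and -0.10 ± 0.50. The difference of -3.73 (-5.12 to -2.33) had an unadjusted p of 4.6e-05 and an adjusted p of 0.208, and it passed with the fixed replicate block (adjusted p = 0.0068).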

How the data were processed

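Total RNA of 14 sorted samples was measured on Affymetrix mouse arrays, 1 array each; per the labels' protocols, biotinylated cRNA came from 100 ng of RNA. The authors deposited 1 linear intensity per probe set, made with Affymetrix Expression Console 1.1 per the submitters' processing notes. The summarisation algorithm is not given in the sources used here. All 14 arrays have the same trimmed mean of 500 (2% off each end), so they were not normalised again. The median log2 value ran from 6.57 to 7.13, and the ratio of 3 prime to 5 prime signal of actin, a sign of RNA quality, from 2.62 to 11.0.

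Of 45101 probe sets, 64 controls, 932 with several symbols and 9160 with none in the platform annotation were left out. Probe sets in the dimmest fraction of 0.333 were dropped, and the brightest of each gene was kept, which left 13453 genes. The deposited intensities were turned into log2 of intensity plus 16 and fitted in limma 3.58.1 (R 4.3.3) with sorted population and treatment as terms and a variance trend. Because 6 and 8 arrays enter, the sorts weigh 42.9% and 57.1% in the common effect. A 4-group fit gave the change in each sort and the difference. Tests are 2-sided, and p-values were adjusted by Benjamini and Hochberg over all genes. The code was tested on simulated data. The number of arrays limits the precision.

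Replicate numbers are from the titles. Deviations of same-numbered untreated and G-CSF arrays from their group means correlated at 0.223 to 0.315 in osteoblasts and 0.102 to 0.377 in endothelial cells. Because 13 of 14 arrays correlated best with their own number, the numbers were taken to pair the samples, and a replicate block was used as an alternative. The main fit leaves this pairing out. Counts, SE and p-values are from that fit unless the block is named.

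Lists (39, with 546 of 623 genes measured), groups of genes and the rule for named genes were chosen with earlier results of these data known. Named genes were the 15 largest separated and called rises and falls, at most 4 called genes per list (where none was called, the 2 with the largest change), a set of key genes, and up to 5 called genes most and least different between the sorts. Alternatives were other pseudocounts, scalings, filters, probe set rules, blocks, weights, priors and thresholds, and each array left out. Osteoblast replicates 2 and 3 of both treatments were deposited with more decimals than the others, and the 2 alternatives that use this were chosen after seeing the data.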

Additional observations from a re-analysis of the deposited data

Results flagged for a closer look

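Within the groups of 4 endothelial arrays, 21 of 260 sets of values of the named genes had 1 array set apart from the other 3 beyond Dixon's 95% critical value, where chance alone flags about 1 in 20. None of these was tested for a cause. Values are log2 of intensity plus 16.

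Untreated endothelial replicate 4 was low for Prok2 (4.56, the others 6.58 to 6.81), Slfn4 (8.61, the others 10.41 to 10.66), Mapk13 (5.61, the others 7.82 to 8.12), Cxcr2 (7.10, the others 7.79 to 7.93), Ccr1 (8.14, the others 9.14 to 9.22) and Ptprc (9.10, the others 10.32 to 10.54). The same array had the lowest neutrophil list of its group, at 11.45. It was also low for Lepr (8.48, the others 9.45 to 9.60). Untreated endothelial replicate 2 was high for Steap4 (11.53, the others 10.16 to 10.39) and Pecam1 (10.42, the others 9.43 to 9.53) and low for Pdk4 (9.27, the others 10.50 to 10.56) and Add2, an adducin of the red cell skeleton (6.90, the others 7.64 to 7.66). Replicate 1 of the untreated endothelial sort was high for Rspo2 (8.80, the others 8.37 to 8.42), and replicate 3 for Cxcl9 (10.27, the others 9.38 to 9.48).

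After G-CSF, endothelial replicate 4 was high for the erythroid genes Gata1 (8.47, the others 6.18 to 6.52) and Slc4a1 (11.45, the others 7.41 to 8.04). Endothelial replicate 3 was high for Igfbp2 (12.37, the others 10.02 to 10.28) and low for Bnip3 (10.36, the others 11.15 to 11.29), Hhipl1 (7.89, the others 8.79 to 8.94), Oas2, an interferon-stimulated gene (8.95, the others 9.23 to 9.29), and Klf6, an immediate early gene (12.08, the others 12.48 to 12.55). Endothelial replicate 2 was low for Mapk13 (8.76, the others 9.83 to 10.04).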

How the results depend on the processing

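Of the 82 called genes named by rule none changed sign under an alternative, 53 stayed called whichever array was left out, and 48 under all 32 alternatives at the same threshold. With arrays left out in turn, 116 to 555 genes were called higher and 90 to 536 lower, 0 to 21 differed between the sorts, and 131 to 361 upward and 141 to 275 downward were separated in both. Median centring gave 325 higher and 63 separated downward. Without the 2 arrays rich in blood or muscle genes 450 were higher and 312 lower, 397 and 319 were separated, and 1 differed between the sorts. A fixed replicate block within sorts gave 354 lower and 1 difference, a random block 369 higher, 443 lower and 4 differences, and a block across sorts 305 lower. Array weights gave 542 and 673, an adjusted p under 0.01 left 41 and 30, and a minimum log2 change of 1 left 7 and 1. The 10 arrays with 1 decimal, which hold 1 osteoblast pair, gave 393 and 351. Averaged probe sets gave 1 difference. The causes were not tested. The fixed block within sorts ended the calls of Grem1, Tmem255a and Rhbdf2, added those of Stat3 and Col2a1 (a cartilage collagen, adjusted p = 0.0031), and changed no other call of a named gene.

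Genes near 0 turned sign. Socs3 was -0.021 with the 10 arrays. Kitl was 0.033 with median centring, 0.048 with array weights and -0.23 to 0.14 with arrays left out. Tnfsf11 was 0.018 with pseudocount 64, 0.036 and 0.062 under quantile and median scaling and -0.33 to 0.25 with arrays left out. Tnfrsf11b was 0.037, 0.025 and 0.044 in the same order and -0.32 to 0.21. Vwf was -0.077 with the 10 arrays and -0.089 to 0.36 with arrays left out. Igfbp5 was 0.072 with median centring, 0.18 with averaged probe sets, 0.40 without suffixed probe sets and -0.16 to 0.048 with arrays left out. Signals near background limit the folds of dim genes.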
